A study of Homo sapiens with 4 samples.

Results

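RAB GTPases are small membrane switches that direct vesicle traffic. Each binds GTP on its own set of compartments and recruits effectors that bud, move, tether or fuse vesicles there, and each is switched on by exchange factors and off by GTPase-activating proteins. A lipid tail added to the C terminus anchors them, and the escort and GDI proteins carry them through the cytosol. In blood lineages they are known for recycling the transferrin receptor that brings iron to developing red cells, and for building and releasing the granules of platelets and mast cells. The genes described here were the rows of the count table whose symbol is RAB followed by digits and at most a single final letter, which gave 63 of 28103 gene symbols. Of these, 51 had enough reads to be tested.

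The cells were HEL, an established erythroleukaemia line that carries features of both red cell and platelet precursors, labelled as human erythroblast. The series holds 2 libraries of HEL cells labelled AFF4 knockdown and 2 Ctrl libraries of HEL cells labelled WT, all from poly(A) RNA. AFF4 holds together the super elongation complex, which frees paused RNA polymerase II near promoters, and the series title names that release. The sources used here do not give the means of knockdown, its duration or the treatment of the Ctrl cells. Nothing says that replicates were separate cultures, so the p-values reflect the spread among these 4 libraries alone, and that spread may be technical.

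Library totals ran from 16643610 to 17955867 counts in the knockdown and from 14903878 to 19129008 in Ctrl. AFF4 itself had 338 and 319 reads in the knockdown libraries, against 1650 and 1033 in the Ctrl libraries, and fell by 2.07 ± 0.19 on the log2 scale (SE; edgeR quasi-likelihood test with Benjamini-Hochberg adjustment, adjusted p = 0.0268). With a stricter filter on low counts its adjusted p was 0.0552. All 11 erythroid and all 7 megakaryocytic markers listed were high enough to be tested. Of markers of other cells, 4 of 5 monocyte and macrophage genes (LYZ, CD68, CSF1R and ITGAM), 1 of 6 lymphoid genes (CD79A) and 2 of 6 epithelial and stromal genes (EPCAM and PDGFRB) were also tested, whereas CD3E, CD3D, KRT5 and COL1A2 had no read in any library. The monocyte list summed to 111 and 116 CPM in the knockdown, against 108 and 122 CPM in Ctrl, and 0 of its members passed in edgeR. At an unadjusted p under 0.05 it held 1, ITGAM, with a log2 fold change of 0.72. That is 25% of its tested members, against 15.0% of all tested genes. The erythroid markers summed to 9260 and 9123 CPM in the knockdown, against 12338 and 14292 CPM in Ctrl. Without the fetal globin genes HBG1 and HBG2 the sum of the other 9 was 2781 and 2836 CPM in the knockdown, against 2297 and 2892 CPM in Ctrl. Of the 11, 6 had positive and 5 negative log2 fold changes, with a median of 0.01, and 1, HBG1, passed as lower, where 0.295% of all tested genes did. At an unadjusted p under 0.05, 3 were higher (GYPB, TFRC and EPOR) and 2 lower (HBG1 and HBG2). Together they are 45.5% of the 11, against 15.0% of all tested genes (6.79% higher and 8.19% lower). The Ctrl libraries stood further apart from each other than the knockdown libraries did. Over the tested RAB genes the log2 difference between Ctrl 2 and Ctrl 1 had an SD of 0.43, against an SD of 0.18 between knockdown 2 and knockdown 1. In bulk RNA, fewer cells of a type and less RNA per cell cannot be told apart.

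The RAB genes centred on 0. The median log2 fold change of the 51 tested genes was 0.01, beside a median of -0.01 over all 13572 tested genes. Only 1 RAB gene passed the edgeR test, RAB27B, which was lower in the knockdown. That is 1.96% of the tested RAB genes, where 0.641% of all tested genes passed in either direction and 0.295% passed as lower. At an unadjusted p under 0.05, 3 RAB genes were higher (RAB37, RAB3C and RAB8A) and 4 were lower (RAB27B, RAB14, RAB26 and RAB3B), beside 6.79% of all tested genes higher and 8.19% lower. Together they are 13.7% of the tested family against a background of 15.0%. The knockdown libraries lay above both Ctrl libraries for 9 members and below both for 13, together 43.1% of those tested against a background of 46.1%. The log2 fold change stayed within 0.5 in either direction for 43 of the 51, or 84.3%, against 82.7% of all tested genes.

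**Figure D1:**
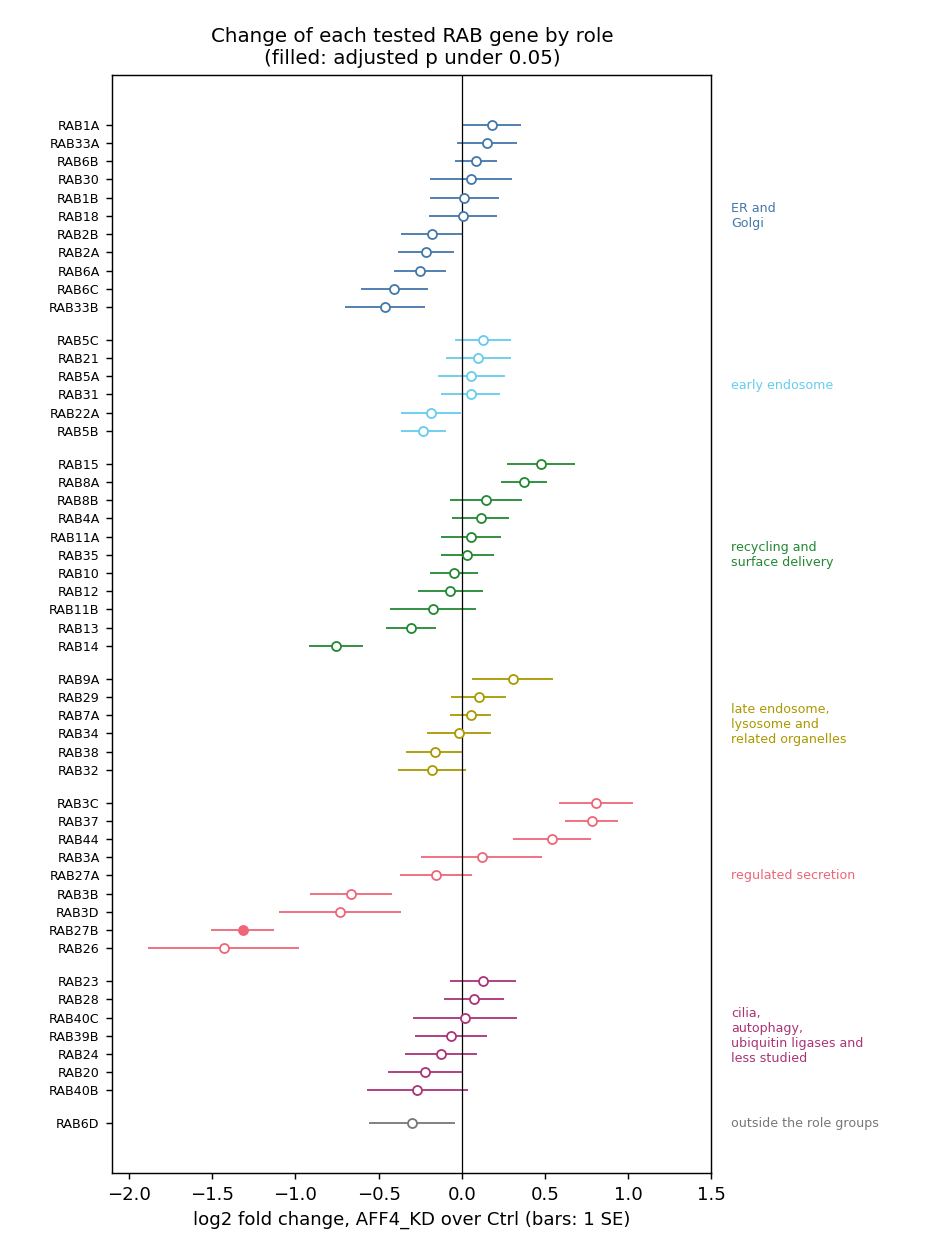
Log2 fold change (AFF4 knockdown over Ctrl, x axis) of the 51 tested RAB genes with bars of 1 SE, grouped and coloured by role, the filled point marking an adjusted p under 0.05 (edgeR, n = 2 libraries in each group). RAB27B is the filled point at -1.32, and the other large values lie mostly in the regulated secretion group.

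Of the 8 members that differed by at least 0.5 on the log2 scale, 7 belong to the 9 genes grouped here as RABs of regulated secretion, and the eighth is RAB14. Their signs were mixed: 3 of the secretion genes had positive values past 0.5 and 4 had negative ones. Several of these secretion genes had low levels. RAB26 had 6 to 22 reads per library and RAB3D 16 to 35, while RAB3B had 4.20 to 8.57 CPM and RAB3C 5.62 to 11.5 CPM. The group lists rest on textbook roles and were drawn up with earlier results of these data known, so this is a description and carries no test.

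RAB27B, which docks secretory granules at the plasma membrane and is known in mouse platelets for dense granule release, was the only member to pass the test. The gene lies on chromosome 18, from 54717860 to 54895516 on the plus strand (GENCODE v29, GRCh38). Its exons overlap the antisense gene AC098848.1 over 4.68% of their length. Transcripts are annotated from 2 start regions in RefSeq, and both windows are printed here because this is the gene that passed. RAB14 and RAB3C follow for comparison, as members with some of the next smallest p-values. Each window runs from 250 bases before to 50 bases after the annotated start, 5′ to 3′ on the gene's strand (RefSeq, GRCh38.p14).
RAB27B upstream start, chr18:54717607-54717906, plus strand: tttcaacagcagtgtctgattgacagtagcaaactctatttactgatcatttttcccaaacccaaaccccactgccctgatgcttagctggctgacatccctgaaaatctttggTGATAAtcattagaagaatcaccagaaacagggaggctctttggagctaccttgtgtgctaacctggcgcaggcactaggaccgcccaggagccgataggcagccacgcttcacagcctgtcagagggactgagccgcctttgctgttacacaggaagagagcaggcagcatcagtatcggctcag
RAB27B downstream start, chr18:54828227-54828526, plus strand: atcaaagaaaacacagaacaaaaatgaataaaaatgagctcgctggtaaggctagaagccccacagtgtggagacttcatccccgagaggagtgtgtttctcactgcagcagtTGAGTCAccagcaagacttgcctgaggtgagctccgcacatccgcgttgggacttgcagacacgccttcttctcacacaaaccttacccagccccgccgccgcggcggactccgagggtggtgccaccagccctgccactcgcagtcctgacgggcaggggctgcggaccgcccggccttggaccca
RAB14, chr9:121201820-121202119, minus strand: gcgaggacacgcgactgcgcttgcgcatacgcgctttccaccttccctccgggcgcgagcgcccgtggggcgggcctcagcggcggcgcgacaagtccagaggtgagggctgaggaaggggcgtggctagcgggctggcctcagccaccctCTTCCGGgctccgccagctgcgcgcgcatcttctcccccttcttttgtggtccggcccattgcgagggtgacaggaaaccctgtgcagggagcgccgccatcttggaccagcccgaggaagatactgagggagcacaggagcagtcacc
RAB3C, chr5:58582825-58583124, plus strand: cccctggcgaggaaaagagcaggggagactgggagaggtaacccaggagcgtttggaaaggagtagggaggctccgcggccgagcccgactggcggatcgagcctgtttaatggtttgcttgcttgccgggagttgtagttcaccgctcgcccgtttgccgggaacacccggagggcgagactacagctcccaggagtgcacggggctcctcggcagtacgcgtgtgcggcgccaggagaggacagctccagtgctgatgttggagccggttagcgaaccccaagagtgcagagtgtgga
Capitals mark matches, searched on both strands, to motifs searched by letters: AGATAA or TGATAA for GATA factors, TGANTCA for AP-1 and CCGGAAG for ETS factors. These motifs were picked after the sequences had been seen. No match of these motifs overlapped a match of another motif in the printed windows. A match describes the letters only and shows no binding.

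The upstream RAB27B window holds TGATAA at 136 bases before the start, and the downstream window holds TGAGTCA at 137 bases before its start. The RAB14 window holds the ETS letters on the opposite strand, 99 bases before the start, and the RAB3C window holds no match to these letters. Over all 35116 windows of the table, 16.3% hold the GATA letters, 7.71% the AP-1 letters and 10.3% the ETS letters. Among the 71 windows of 50 RAB genes, 8 hold the GATA letters, 8 the AP-1 letters and 9 the ETS letters. The windows also differ in CpG content: 6 CpG dinucleotides in the upstream RAB27B window and 17 in the downstream one, 29 in that of RAB14 and 23 in that of RAB3C, beside a median of 23 over RAB windows and 14 over all windows. Gene counts do not tell which RAB27B start was used.

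RAB27B had 1860 and 1767 reads in the knockdown libraries, against 5646 and 3208 in the Ctrl libraries. This is 103 and 105 CPM (reads relative to the TMM-scaled library size) in the knockdown, against 302 and 215 CPM in Ctrl. Both knockdown libraries lay far below both Ctrl libraries, and the Ctrl libraries differed from each other more than the knockdown libraries did. The gene averaged 104 ± 1.52 CPM in the knockdown and 259 ± 61.9 CPM in Ctrl (SD, n = 2 each). It fell by 1.32 on the log2 scale with an SE of 0.19, and the edgeR adjusted p was 0.0415. The call was lost with a stricter filter on low counts (log2 fold change -1.34, edgeR adjusted p = 0.0686). It was also lost without knockdown 1 and without knockdown 2, with log2 fold changes of -1.26 and -1.33. With 1 library left out, a single library takes its spread from the opposite group. Without Ctrl 1 the log2 fold change was -1.05 and without Ctrl 2 it was -1.54.

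Its paralog RAB27A, which tethers lytic granules and melanosomes, differed less between the groups. It had 8.46 and 8.61 CPM in the knockdown libraries, against 10.7 and 8.23 CPM in the Ctrl libraries. The groups overlapped, and the log2 fold change was -0.15 ± 0.22 (edgeR adjusted p = 0.830). Per kilobase of exon, RAB27B stood 6.18 and 6.19 times above RAB27A in the knockdown libraries, against 14.3 and 13.3 times in the Ctrl libraries. Both knockdown ratios lay below both Ctrl ratios. Megakaryocytic markers were lower in part: 6 of 7 tested had negative log2 fold changes, with a median of -0.55, and 1, the fibrinogen receptor subunit ITGB3, passed as lower, against a background of 0.295%. The summed level of these markers was 1689 and 1812 CPM in the knockdown libraries, against 1826 and 2678 CPM in Ctrl. ITGA2B was its largest part, at 1030 and 1145 CPM in the knockdown, against 881 and 1545 CPM in Ctrl. The groups overlapped for ITGA2B, GP9 and GP1BA. The knockdown lay below both Ctrl libraries for the other 4 (57.1%), as it did for 23.0% of all tested genes. The part of the megakaryocytic markers in the RAB27B result was not tested.

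RAB37, which in mice takes part in mast cell granule release, lay on the opposite side. It had 98.3 and 102 CPM in the knockdown libraries, against 53.2 and 63.7 CPM in the Ctrl libraries. The knockdown libraries were both higher and close to each other, and the groups did not overlap. The log2 fold change was 0.78 ± 0.16 (SE), which did not pass the edgeR test (adjusted p = 0.0886), and RAB37 passed in DESeq2 on the same genes (adjusted p = 0.0104). Leaving out 1 library gave log2 fold changes of 0.84 without knockdown 1 and 0.75 without knockdown 2. They were 0.66 without Ctrl 1 and 0.91 without Ctrl 2. Per kilobase of exon, RAB37 was at 22.3 ± 0.611 CPM per kb in the knockdown and 13 ± 1.65 CPM per kb in Ctrl (SD, n = 2 each). RAB27B was at 14.3 ± 0.208 CPM per kb in the knockdown and 35.5 ± 8.5 CPM per kb in Ctrl, so the order of these genes differed between the groups.

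RAB44, a long atypical RAB with EF-hand and coiled-coil parts that is linked to mast cell degranulation in mice, had 43.2 and 41.3 CPM in the knockdown, against 22.8 and 35.3 CPM in Ctrl. Both knockdown libraries lay above both Ctrl libraries, but the gap to Ctrl 2 was smaller than the gap between the Ctrl libraries. The log2 fold change was 0.54 ± 0.23 (SE; edgeR adjusted p = 0.346), and it ranged from 0.26 without Ctrl 1 to 0.89 without Ctrl 2. RAB26, which takes part in the maturation of secretory granules, was near the floor of detection. It had 6 and 9 reads in the knockdown libraries, against 17 and 22 reads in the Ctrl libraries. The groups did not overlap, and the log2 fold change of -1.43 ± 0.45 did not pass (edgeR adjusted p = 0.208). The value was -1.07 without Ctrl 2 and -1.10 without knockdown 1, against -1.76 without Ctrl 1 and -1.81 without knockdown 2.

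The RAB3 genes, which control the last steps of regulated exocytosis in neurons and endocrine cells, had few reads, and their values differed in sign. RAB3C had 11.5 and 11.5 CPM in the knockdown, against 7.44 and 5.62 CPM in Ctrl, with a log2 fold change of 0.81 ± 0.22 (SE) and an adjusted p of 0.155 in edgeR. RAB3B had 4.20 and 5.88 CPM in the knockdown, against 8.57 and 7.36 CPM in Ctrl, with a log2 fold change of -0.66 ± 0.25 (adjusted p = 0.273). In both genes the groups did not overlap, and neither passed the edgeR test. RAB3D had 16 and 26 reads in the knockdown, against 32 and 35 reads in Ctrl (log2 fold change -0.73 ± 0.37, adjusted p = 0.419). RAB3A had 2.54 and 3.15 CPM in the knockdown, against 1.77 and 3.55 CPM in Ctrl, with overlapping groups. With 1 library left out, RAB3B ranged from -0.41 without knockdown 1 to -0.92 without knockdown 2, RAB3D from -0.35 to -1.18 without the same libraries, and RAB3C from 0.62 without Ctrl 2 to 1.03 without Ctrl 1. In such fits a single library takes its spread from the opposite group, so calls from them are not weighed here. The ratio of RAB3C to RAB3B per kilobase was 3.95 and 2.81 in the knockdown libraries, against 1.25 and 1.10 in the Ctrl libraries.

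**Figure D2:**
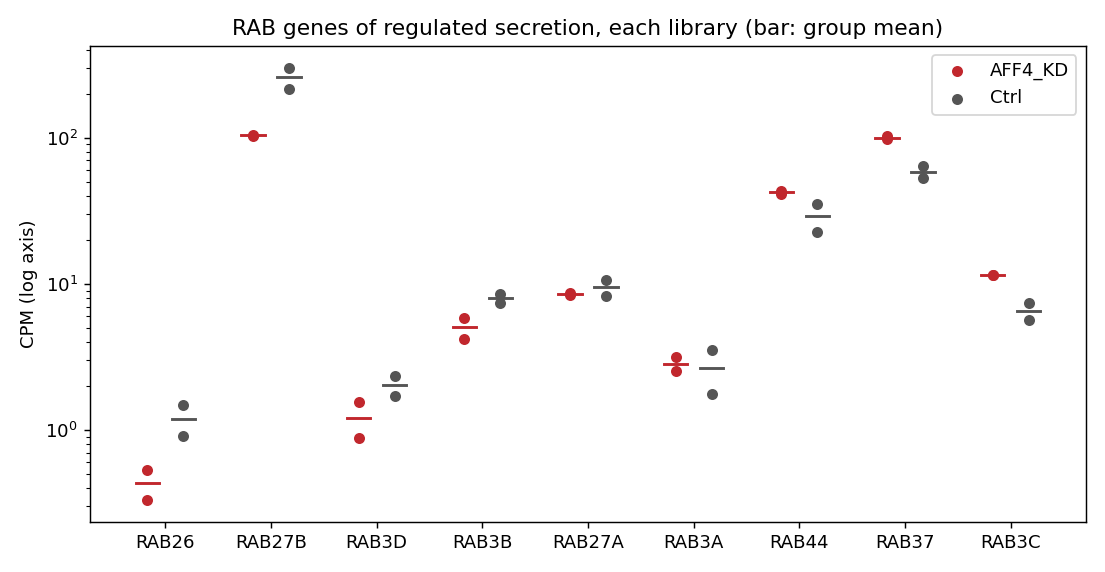
CPM of each library (y axis, log scale) for the 9 RAB genes of regulated secretion, with the AFF4 knockdown in red left of Ctrl in grey and a bar at each group mean (n = 2 libraries each), ordered by log2 fold change. RAB27B stands at 103 and 105 CPM in the knockdown, against 302 and 215 CPM in Ctrl, and both RAB37 points of the knockdown lie above those of Ctrl.

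Summed over the 9 secretion genes, the libraries held 272 and 279.6 CPM in the knockdown, against 409 and 342 CPM in Ctrl. Without RAB27B the same sum was 169 and 175 CPM in the knockdown, against 107 and 128 CPM in Ctrl. The direction of the sum therefore turned on the inclusion of RAB27B. RAB37 was the largest part of the sum without RAB27B, at 98.3 and 102 CPM in the knockdown, against 53.2 and 63.7 CPM in Ctrl. Of the 9 genes, 4 had positive and 5 negative log2 fold changes. Over all 63 family members the sum was 3917 and 3911 CPM in the knockdown libraries, against 4180 and 3875 CPM in the Ctrl libraries, so the groups overlapped at the level of the family.

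Among the RABs of recycling and surface delivery, RAB14 stood apart. This gene, which links the Golgi with endosomes and takes part in recycling to the surface, lies on chromosome 9, from 121178137 to 121223014 on the minus strand (GENCODE v29). It had 1323 and 1268 reads in the knockdown libraries, against 2585 and 1680 reads in the Ctrl libraries, which is 73.1 and 75.3 CPM in the knockdown, against 138 and 112 CPM in Ctrl. The groups did not overlap. The log2 fold change of -0.76 ± 0.16 (SE) did not pass the edgeR test (adjusted p = 0.0942) and passed in DESeq2 (adjusted p = 0.0118). Leaving out 1 library gave values between -0.90 and -0.60.

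RAB8A, which carries cargo from the Golgi to the plasma membrane and the cilium, had 141 and 139 CPM in the knockdown, against 109 and 107 CPM in Ctrl. The 2 libraries of each group were almost equal, and the log2 fold change was 0.37 ± 0.14 (SE; edgeR adjusted p = 0.271). Its exons overlap an antisense gene over 36.0% of their length, and the counting is not stated to use strand, so reads of both genes cannot be told apart. RAB15, an endosomal RAB best known in neurons, had 21.8 and 25.0 CPM in the knockdown, against 15.0 and 18.7 CPM in Ctrl (log2 fold change 0.48 ± 0.20, edgeR adjusted p = 0.334). RAB13, which delivers cargo to cell junctions, had 63.8 and 64.0 CPM in the knockdown, against 79.3 and 78.5 CPM in Ctrl (-0.30 ± 0.15, adjusted p = 0.404). RAB13 shares 42.8% of its exon bases with the same-strand gene AL358472.6, and its count is uncertain for that reason. In these 3 genes the groups did not overlap, and none of the 3 passed the edgeR test or DESeq2.

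RAB11A, the main RAB of the recycling endosome, had 313 and 299 CPM in the knockdown, against 343 and 246 CPM in Ctrl, so both knockdown libraries lay between the Ctrl libraries. RAB10, which serves surface delivery of membrane proteins, had 232 CPM in both knockdown libraries, against 260 and 219 CPM in Ctrl. RAB8B, a relative of RAB8A, had 75.7 and 76.2 CPM in the knockdown, against 82.6 and 54.7 CPM in Ctrl, again with overlapping groups. RAB4A of fast recycling, RAB8B, RAB11B, RAB12 and RAB35 had log2 fold changes between -0.17 and 0.15. The 11 tested members of this group had a median of 0.03.

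The RABs of the endoplasmic reticulum and Golgi showed no member past the edgeR test, over a median log2 fold change of 0.01 and a range of -0.46 to 0.18. At an unadjusted p under 0.05 the count among its 11 tested genes was also 0, beside 15.0% of all tested genes. In DESeq2 the group held none past the adjusted threshold, beside 3.02% of all tested genes. RAB6B, the RAB6 form best known in neurons, had the highest level per kilobase in this group of genes. It had 542 and 532 CPM in the knockdown, against 485 and 528 CPM in Ctrl, where the knockdown libraries lay narrowly above. RAB6A, the ubiquitous form for Golgi-derived retrograde and secretory traffic, had 178 and 171 CPM in the knockdown, against 231 and 185 CPM in Ctrl, with groups that did not overlap and a log2 fold change of -0.25 ± 0.16 (SE) and an adjusted p of 0.522 in edgeR. Per kilobase the ratio of RAB6B to RAB6A was 1.91 and 1.95 in the knockdown libraries, against 1.32 and 1.79 in the Ctrl libraries. The retrocopy RAB6C and the related RAB6D, which is in no role group, had log2 fold changes of -0.41 ± 0.20 and -0.30 ± 0.26. RAB6C had 208 and 185 reads in the knockdown, against 306 and 200 reads in Ctrl. Their counts are uncertain, since 55.8% of the 50-base stretches of the longest RAB6C transcript and 55.0% of those of RAB6D occur unchanged in another RAB transcript, as do 21.6% of those of RAB6A.

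RAB1A and RAB1B, which bring vesicles from the endoplasmic reticulum to the Golgi, were close between groups. RAB1A had 118 and 112 CPM in the knockdown, against 115 and 87.6 CPM in Ctrl. RAB1B had 118 and 129 CPM in the knockdown, against 98.6 and 146 CPM in Ctrl. In both genes the groups overlapped, and the log2 fold changes were 0.18 ± 0.17 and 0.02 ± 0.21. The RAB1A value was 0.40 without Ctrl 1 and 0.0026 without Ctrl 2. RAB33B, which acts in autophagosome formation, had 6.14 and 8.08 CPM in the knockdown, against 10.9 and 8.64 CPM in Ctrl (-0.46 ± 0.24, edgeR adjusted p = 0.433). Its relative RAB33A had 25.8 and 25.4 CPM in the knockdown, against 21.7 and 24.4 CPM in Ctrl (0.15 ± 0.18). RAB2A, RAB2B, RAB18 and RAB30 had log2 fold changes between -0.21 and 0.06.

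Early endosome RABs had log2 fold changes within -0.23 to 0.13. At an unadjusted p under 0.05 the count was 0, also for the late endosome group and the group of ciliary, autophagy and ubiquitin-ligase RABs. These groups hold only 6, 6 and 7 tested genes, and the share over all tested genes was 15.0%. RAB5A, RAB5B and RAB5C drive the fusion of incoming vesicles with early endosomes. RAB5B had 137 and 133 CPM in the knockdown, against 161 and 155 CPM in Ctrl, with groups that did not overlap and a log2 fold change of -0.23 ± 0.14 (SE) and an adjusted p of 0.499 in edgeR. RAB5C had 164 and 171 CPM in the knockdown, against 133 and 173 CPM in Ctrl, and shares 28.9% of its exon bases with AC099811.2 on the same strand. RAB5A had 74.3 and 69.7 CPM in the knockdown, against 81.4 and 56.7 CPM in Ctrl. RAB21, which takes part in integrin uptake, had 60.8 and 60.9 CPM in the knockdown, against 65.6 and 47.9 CPM in Ctrl. RAB22A and RAB31 had log2 fold changes of -0.19 and 0.05.

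RAB7A, which matures late endosomes and drives their fusion with lysosomes, had the highest level per kilobase of all family members in both groups. It had 449 and 451 CPM in the knockdown, against 439 and 428 CPM in Ctrl, with a narrow gap between the groups. Its log2 fold change was 0.05 ± 0.12 (SE), with an edgeR adjusted p of 0.903. RAB32 and RAB38, which build melanosomes and other lysosome-related organelles, had log2 fold changes of -0.18 ± 0.20 and -0.16 ± 0.17. RAB9A, which returns receptors from late endosomes to the Golgi, had 20.5 and 18.7 CPM in the knockdown, against 19.1 and 12.5 CPM in Ctrl, with overlapping groups and a log2 fold change of 0.31 ± 0.24. RAB34, which positions lysosomes, had 85.8 and 87.4 CPM in the knockdown, against 72.9 and 103 CPM in Ctrl (-0.02 ± 0.19). The LRRK2-linked RAB29 had a log2 fold change of 0.10 ± 0.17.

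The remaining tested members were the ciliary RAB23 and RAB28, RAB20, the autophagy-linked RAB24, RAB39B and the ubiquitin-ligase RABs RAB40B and RAB40C. Their log2 fold changes lay between -0.27 and 0.13. In all 7 the groups overlapped, where 46.1% of all tested genes had groups that did not. RAB24 had 34.7 and 36.8 CPM in the knockdown, against 32.0 and 46.0 CPM in Ctrl, and RAB28 had 33.9 and 30.1 CPM in the knockdown, against 32.3 and 28.5 CPM in Ctrl. RAB23 exons overlap those of BAG2 on the opposite strand over 57.7% of their length, so its reads are uncertain.

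Levels were compared per kilobase of exon. RAB7A came first, at 200.4 ± 0.630 CPM per kb in the knockdown and 193 ± 3.45 CPM per kb in Ctrl (SD, n = 2 each). RAB6B and RAB5C followed, at 94.9 ± 1.26 and 87.3 ± 2.64 CPM per kb in the knockdown and 89.6 ± 5.40 and 80.0 ± 14.9 CPM per kb in Ctrl, and these neighbours did not differ beyond their spread in Ctrl. RAB10, RAB1B, RAB11A and RAB6A came next in both groups or close to it, between 49.2 and 65.7 CPM per kb in the knockdown and between 58.6 and 67.7 CPM per kb in Ctrl. In Ctrl these 4 genes had SDs of 8.25 to 16.6 CPM per kb, and neighbours in their order were closer to each other than these SDs. The steepest move in this order was that of RAB27B, at rank 27 of 63 in the knockdown and rank 12 in Ctrl. RAB37 stood at rank 18 in the knockdown and rank 29 in Ctrl, and RAB14 at rank 23 in the knockdown and rank 13 in Ctrl.

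**Figure D3:**
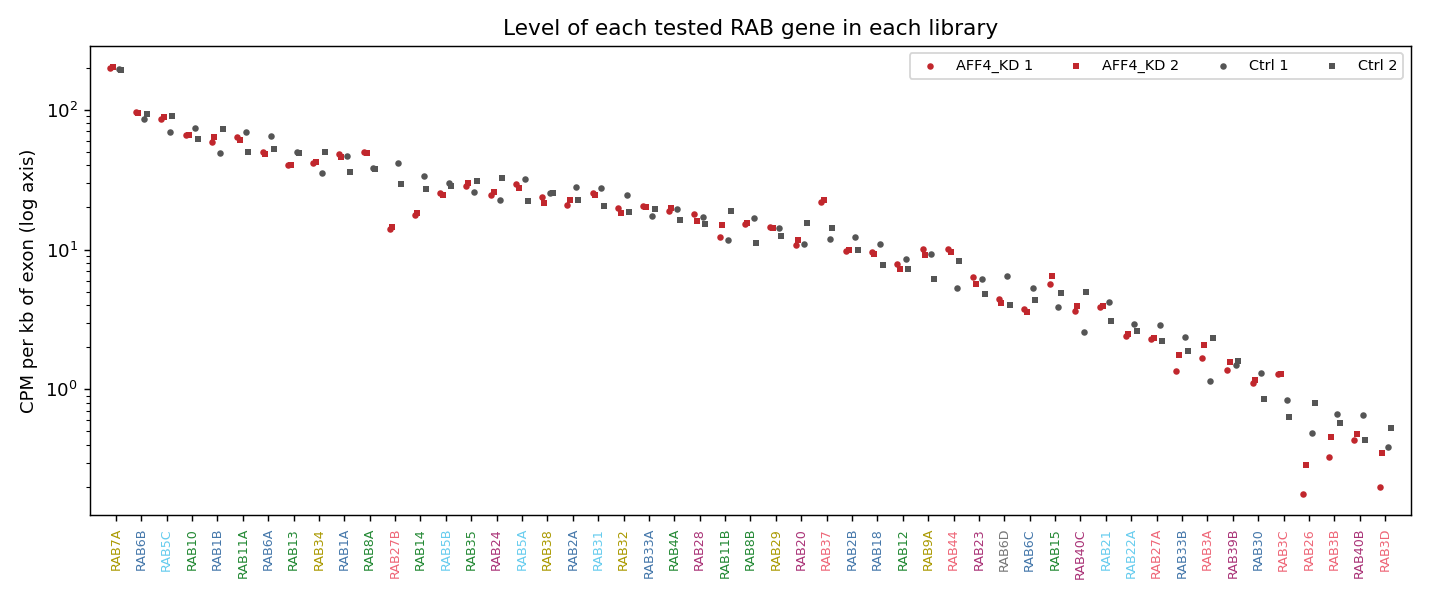
CPM per kb of exon (y axis, log scale) of the 51 tested RAB genes in each of the 4 libraries, with knockdown libraries in red and Ctrl libraries in grey, ordered by the Ctrl mean and with names coloured by role. RAB27B and RAB14 show red points below the grey ones and RAB37 shows red points above them, while most genes have their points mixed.

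The spread between the Ctrl libraries followed the base composition of the transcripts. Across the 51 tested RAB genes, the log2 difference of Ctrl 2 over Ctrl 1 had a Spearman rho of 0.85 with the GC content of the longest transcript, and over 13162 tested genes rho was 0.82. All points of such a comparison share the same pair of libraries. For knockdown 2 over knockdown 1 rho was 0.35 over the RAB genes, and for the knockdown over Ctrl it was 0.02. RAB27B has the lowest GC content of the tested members, 35.9%, and differed by -0.49 between Ctrl 2 and Ctrl 1, whereas RAB37 has 55.0% and differed by 0.26. A trend with GC content was then removed from each library, a step added once the Ctrl difference was known. After it, RAB27B had a log2 fold change of -1.25 ± 0.06, RAB37 0.78 ± 0.06 and RAB14 -0.72 ± 0.06 (SE). The trend is removed before the SE is computed, so these SEs leave out the GC-linked spread between replicates. With that correction 6 RAB genes were called higher and 8 lower (edgeR), 27.5% of those tested, beside 29.3% of all tested genes.

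**Figure D4:**
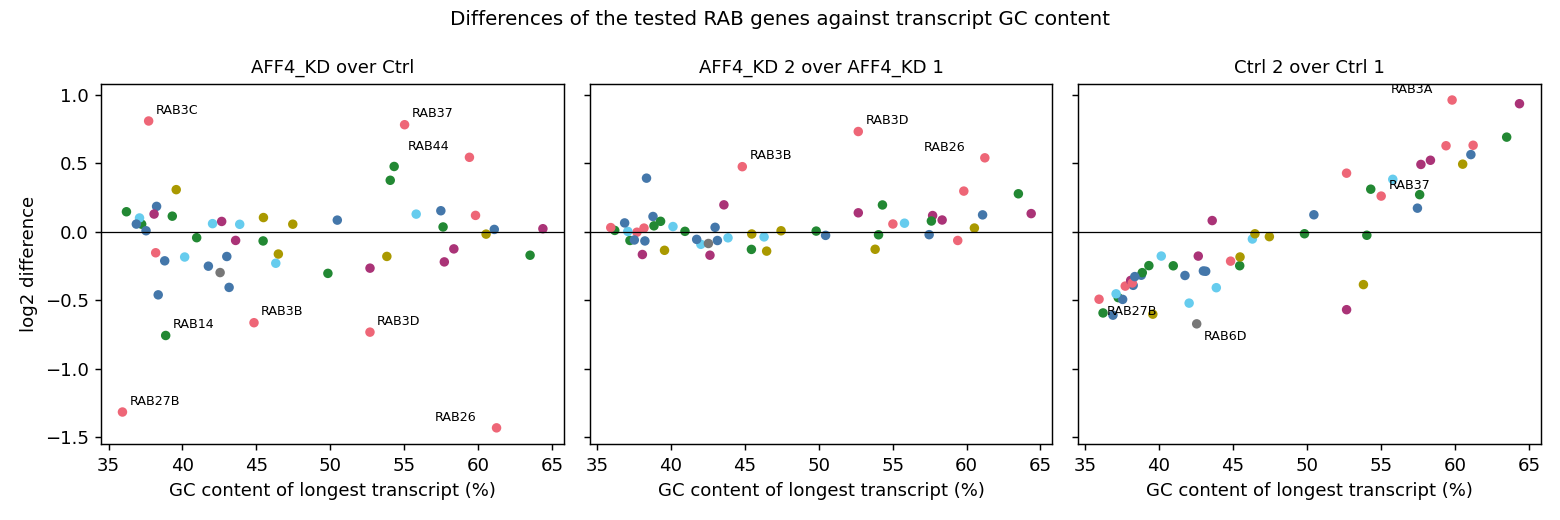
Log2 difference (y axis) against GC content of the longest transcript (x axis, %) for the 51 tested RAB genes, for the knockdown over Ctrl, knockdown 2 over knockdown 1 and Ctrl 2 over Ctrl 1, coloured by role as in the plot of changes. The Ctrl pair slopes upward with GC content (rho 0.85), and the knockdown over Ctrl does not (rho 0.02).

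Of the 63 members, 12 did not pass the filter on low counts. RAB4B, RAB17, RAB19 and RAB41 had no read in any library, which allows up to 0.178 CPM in a knockdown library and up to 0.201 CPM in a Ctrl library (3 reads each, counting error only). RAB7B, RAB9B, RAB25, RAB36, RAB39A, RAB40A, RAB42 and RAB43 had between 0 and 11 reads per library. In the annotation RAB4B shares 65.4% of its exon bases with the readthrough gene MIA-RAB4B and 49.5% with RAB4B-EGLN2, and RAB43 shares 84.5% with ISY1-RAB43. These readthrough genes also had no read in any library, and whether reads shared with them were left uncounted was not tested. RAB25 and RAB17, both known from epithelia, were at or near the floor in both groups.

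Genes of the machinery around the RABs were counted in the same way. Of the 6 genes of prenylation, escort and GDI, all were tested, and their median log2 fold change was -0.09. Of 35 listed exchange factors 33 were tested (median -0.01), of 37 GTPase-activating proteins 35 (median 0.03) and of 50 effectors 41 (median -0.00). In these lists 0 members passed in edgeR, DESeq2 or limma-voom. At an unadjusted p under 0.05 there were 0 in the prenylation list, 2 higher and 3 lower among exchange factors, 3 higher and 2 lower among GTPase-activating proteins and 2 higher and 1 lower among effectors, against the background of 15.0% of all tested genes.

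RAB3GAP1, the catalytic subunit of the complex that switches off RAB3 and also activates RAB18, had the smallest p of these lists. It had 73.0 and 73.5 CPM in the knockdown, against 121 and 105 CPM in Ctrl, with groups that did not overlap and a log2 fold change of -0.63 ± 0.15 (SE) and an adjusted p of 0.121 in edgeR. TBC1D9 had -0.72 ± 0.18 and TBC1D2, which acts on RAB7, had 1.05 ± 0.32 from a low level, with adjusted p of 0.126 and 0.193. Among exchange factors, ANKRD27, which activates RAB21, had 318 and 309 CPM in the knockdown, against 243 and 219 CPM in Ctrl (0.44 ± 0.13, adjusted p = 0.189). DENND5A and DENND6B had -0.48 ± 0.15 and -0.80 ± 0.26. Among effectors, the dynein adaptor BICD2, which binds RAB6, had 0.49 ± 0.16, the RAB11 partner RAB11FIP1 had -0.44 ± 0.16 and the lysosomal tether VPS41 had 0.44 ± 0.18. RABGGTB, the catalytic subunit that attaches the lipid tail, had -0.35 ± 0.15, and the escort proteins CHML and CHM had -0.40 ± 0.20 and 0.40 ± 0.21. None of these genes passed the edgeR test, with adjusted p between 0.121 and 0.427.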

How the data were processed

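Poly(A) RNA of HEL cells was sequenced in 4 libraries, 2 per group, made by a method that marks strand, with PCR and no molecular identifiers mentioned, per the labels' protocols. The deposited values are whole-number counts of reads per gene symbol. The submitters' processing notes name fastp 0.13.1, HISAT2 2.1.0, featureCounts 1.6.1 and the build hg38. The sources used here give no annotation, strand setting or treatment of multi-mapped reads, which affect paralogs and overlapping genes. Overlaps also include RAB1B with AP001107.2 (23.9% of its exon bases), RAB4A with SPHAR (21.3%) and RAB3D with AC011472.3 (20.5%).

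Tests ran in R 4.3.3 with edgeR 4.0.16. The filterByExpr filter (minimum count 10, total 15) left 13572 genes, and counts were scaled by TMM, so changes are relative to other genes. A quasi-likelihood fit with group as its term used all 4 libraries, with Benjamini-Hochberg adjustment over all tested genes and a threshold of 0.05. The SE is the absolute log2 fold change over the square root of F. CPM use the TMM-scaled sizes. Per-kilobase levels use the exon union of GENCODE v29 basic transcripts, in which all 63 members matched by symbol. Promoter windows come from RefSeq, and 13 members (RAB1A, RAB2A, RAB12, RAB15, RAB20, RAB26, RAB33A, RAB33B, RAB36, RAB37, RAB38, RAB39B and RAB44) have no entry used here. Shared stretches of 50 bases were counted against transcripts of genes whose symbol begins with RAB.

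Members, role groups and lists were chosen with earlier results of these data known. Any member may be named. In full are given AFF4, called members, the 10 smallest p in each direction, the 2 highest levels of each role group and, of the pathway lists, the 3 smallest p. Replicate columns were not copies of each other: the mean chi-square per gene was 2.74 between the knockdown libraries and 51.4 between the Ctrl libraries. These values do not show that the replicates were separate cultures. The alternatives were RLE and library-size scaling, no filter or one of at least 5 CPM in 2 libraries, DESeq2 1.42.0, limma-voom 3.58.1, the replicate number as a block, leaving out each library, and a GC correction (lowess span 0.4), with and without the block, added after the data were seen. The edgeR, DESeq2 and limma-voom fits were tested on simulated data. The simulation gave every gene the same dispersion and held no GC-linked difference between replicates. It therefore does not cover the spread seen between the Ctrl libraries.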

Additional observations from a re-analysis of the deposited data

How the results depend on the processing

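Across 13 alternatives RAB27B kept its negative sign, with log2 fold changes from -1.54 to -1.05. Of the alternatives that used all 4 libraries, it lost its call only with the stricter filter. Those alternatives include the GC corrections, in which 29.3% and 39.5% of all tested genes were called. Calls with 1 library left out are not weighed in that statement. RAB37, RAB14, RAB3C, RAB26, RAB3B, RAB8A and RAB44 also kept their signs in each alternative in which they were tested. The number of called RAB genes, 1 in the edgeR fit (RAB27B), was 1 with RLE scaling, library-size scaling and limma-voom, 4 with no filter (RAB27B, RAB14, RAB37 and RAB3C), 0 with the stricter filter, 3 in DESeq2 (RAB27B, RAB14 and RAB37), 14 with the GC correction and 19 with the GC correction and the replicate number as a block. With 1 library left out it ranged from 0 (without either knockdown library) to 29 (without either Ctrl library), a fit in which a single library takes its spread from the opposite group. Beside the share of all tested genes, called RAB genes made up 6.78% against 3.89% with no filter, 5.88% against 3.02% in DESeq2, 27.5% against 29.3% with the GC correction, 37.3% against 39.5% with that correction and the block, 56.9% against 43.7% without Ctrl 1 and 56.9% against 49.4% without Ctrl 2. Genes called higher and lower, 47 and 40, were 328 and 406 with no filter, 1 and 4 with the stricter filter, 188 and 222 in DESeq2, 1935 and 1919 with the GC correction, 2635 and 2565 with that correction and the block, and ranged from 42 to 3406 and from 15 to 3305 with 1 library left out. RAB genes at an unadjusted p under 0.05, 3 higher and 4 lower, were 5 higher with no filter and in limma-voom, 2 lower in DESeq2, 10 and 11 with the GC correction, 10 and 12 with that correction and the block, and 0 to 17 higher and 1 to 19 lower with 1 library left out. The share of RAB genes at that threshold, either direction, was 16.9% against 13.3% of all tested genes with no filter, 9.8% against 11.3% in DESeq2, 17.6% against 14.9% in limma-voom, 41.2% against 42% with the GC correction, 43.1% against 47% with that correction and the block, 58.8% against 50.7% without Ctrl 1, 62.7% against 54.9% without Ctrl 2, 3.92% against 4.43% without knockdown 1 and 5.88% against 4.35% without knockdown 2. The RAB median of 0.01 ranged from -0.12 (without Ctrl 2) to 0.030 with 1 library left out. AFF4 lost its call with the stricter filter (-2.095, adjusted p = 0.0552). With the cause not tested, RAB34 (-0.02) turned to 0.0083 with library-size scaling, 0.0076 in limma-voom, 0.0058 with the GC correction, 0.0056 with that correction and the block and 0.0019 with the replicate block, and RAB1B (0.02) to -0.025 with the stricter filter.

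Replicate numbers in the labels are not said to mark a shared culture or day, and there are 2 pairs. Same-numbered libraries deviated with a correlation of 0.29 over 13572 genes. With the replicate number as a block, 408 genes were higher and 480 lower, and 5 RAB genes passed (RAB27B, RAB37, RAB14, RAB3C and RAB26), 9.8% against 6.54% of all tested genes. With 1 library left out, RAB5C ranged from -0.050 to 0.33, RAB1B from -0.24 to 0.32, RAB10 from -0.16 to 0.087, RAB8B from -0.12 to 0.47, RAB11A from -0.17 to 0.32, RAB34 from -0.24 to 0.25, RAB24 from -0.36 to 0.16 and RAB28 from -0.010 to 0.17. Without a change of sign, RAB9A ranged from 0.040 (without Ctrl 2) to 0.65 (without Ctrl 1), RAB6A from -0.40 (without Ctrl 2) to -0.081 (without Ctrl 1), RAB6C from -0.54 to -0.25 and RAB6B from 0.025 (without Ctrl 1) to 0.15, and RAB33B from -0.67 (without knockdown 2) to -0.24 (without knockdown 1). RAB26, RAB3D, RAB3A and RAB40B had too few reads to be tested with the stricter filter.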
